A study of Mus musculus with 8 samples.

Results

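The Hox genes encode homeodomain transcription factors that lie in 4 clusters, and 38 of them were followed here in 8 RNA-seq libraries of mouse skin. Members were taken by name alone, as every gene symbol made of Hox, a letter from a to d and a number, out of 55418 genes measured. Antisense names were left out, and so was Hoxc13, a gene of hair shaft formation. The Hoxa cluster on chromosome 6 gave 11 members, the Hoxb cluster on chromosome 11 gave 10, the Hoxc cluster on chromosome 15 gave 8 and the Hoxd cluster on chromosome 2 gave 9. By number, 12 belonged to paralog groups 1 to 4, 11 to groups 5 to 8 and 15 to groups 9 to 13.

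The libraries came from hairloss mice, which carry a spontaneous mutation, and from wildtype mice, each at postnatal days 0, 16, 19 and 28, with 1 library for each genotype and age. There were no replicates, so a difference between genotypes at 1 age has no error of its own. The sources used here do not name the mutated gene, the strain, how many animals went into a library or the place on the body where skin was taken. The deposited values carry no unit and were taken as FPKM, fragments scaled to transcript length and to library size. On that reading, levels of different genes can be set beside each other per length.

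In the embryo the Hox genes of a cluster are switched on in an order that follows their position on the chromosome, low numbers towards the head and high numbers towards the tail. Skin fibroblasts keep much of that pattern after birth, so that the mix of Hox transcripts differs between skin of the head, trunk, limbs and tail. Hox proteins bind DNA together with the cofactors Pbx and Meis, and Polycomb proteins hold the unused part of a cluster silent.

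The Hox genes were present at low levels. Only 3 members averaged at least 5 FPKM over the 8 libraries, while 27 reached 1 FPKM in some library and 11 did not. A total of 25 members stood above 0 in every library, and 3, Hoxb13, Hoxd12 and Hoxd13, were listed at 0 in all of them. Depth, estimated from the values, was 30900000 to 42700000 fragments a library, which puts 3 fragments on a transcript of 1000 bases at 0.0703 to 0.0971 FPKM. Of the 38 members, 16 share exon bases with another annotated gene, 9 of them with one on the same strand, and the sources used here do not say whether the libraries kept strand. Hoxc10 and Hoxc5 share exon bases on the same strand, as do Hoxd3 and Hoxd4, and the counting could split their reads.

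Stretches before the starts of 4 members are shown because Hoxa9 and Hoxa10 were highest in the wildtype library of day 28, where Hoxd10 was lowest, and Hoxd8 was the most abundant member. They are the 250 bases before a RefSeq start on GRCm38.p6, 5′ to 3′ on the gene's strand, with CCAAT on either strand in capitals. In order they lie at chr6:52227371-52227620 and chr6:52234940-52235189 on the minus strand, and at chr2:74704365-74704614 and chr2:74691641-74691890 on the plus strand.
Hoxa9: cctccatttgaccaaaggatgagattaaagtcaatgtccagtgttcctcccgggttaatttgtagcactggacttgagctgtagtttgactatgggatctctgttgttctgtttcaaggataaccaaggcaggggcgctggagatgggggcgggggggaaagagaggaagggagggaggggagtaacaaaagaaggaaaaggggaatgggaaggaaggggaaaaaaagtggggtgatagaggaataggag
Hoxa10: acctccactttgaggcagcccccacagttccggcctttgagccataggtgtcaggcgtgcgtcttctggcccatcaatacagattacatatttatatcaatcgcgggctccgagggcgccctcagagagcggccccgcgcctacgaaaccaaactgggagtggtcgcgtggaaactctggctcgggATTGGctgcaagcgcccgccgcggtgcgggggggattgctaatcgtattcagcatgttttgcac
Hoxd8: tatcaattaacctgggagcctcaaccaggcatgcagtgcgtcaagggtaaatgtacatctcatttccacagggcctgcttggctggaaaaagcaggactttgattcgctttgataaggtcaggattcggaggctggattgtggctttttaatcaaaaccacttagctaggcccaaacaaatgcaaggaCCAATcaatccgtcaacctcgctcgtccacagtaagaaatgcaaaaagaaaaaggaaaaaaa
Hoxd10: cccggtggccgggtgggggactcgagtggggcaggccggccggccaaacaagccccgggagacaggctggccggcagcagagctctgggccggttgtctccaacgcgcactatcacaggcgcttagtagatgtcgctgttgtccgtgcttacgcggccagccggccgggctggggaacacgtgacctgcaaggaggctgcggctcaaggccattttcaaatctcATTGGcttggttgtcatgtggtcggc
The Hoxa9 stretch had no CCAAT and 3 CG pairs, and the Hoxa10 stretch had 1 CCAAT and 20 CG pairs. RefSeq gives Hoxa10 another start, whose stretch at chr6:52240855-52241104 had 0 CCAAT and 7 CG pairs and is not shown. The Hoxd8 and Hoxd10 stretches had 1 CCAAT each, with 6 and 20 CG pairs. RefSeq stretches were matched for 22 of the 38 members, 24 starts in all, and CCAAT stood in 58.3% of them, against 33.8% of 32851 starts of all genes. The motif TTTATG, a Cdx-type site, stood in 20.8% of the members' stretches and 10.8% of all, and TGATNNAT, a site of Pbx with Hox, in 16.7% and 7.68%, with both strands searched for each. The members' stretches held a median of 12.5 CG pairs, against 6 over all starts. A match of letters is a description only.

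The wildtype library of day 28 stood apart in its Hox values. It was the highest of the 8 libraries for 13 of the 27 members that reached 1 FPKM, or 48.1%, while it was the highest for 12.3% of all 18724 genes of that level. Those 13 were 7 of 11 in groups 5 to 8, 5 of 7 in groups 9 to 13, and 1 of 9 in groups 1 to 4. Of the 13, Hoxa10, Hoxb8, Hoxb9, Hoxc9 and Hoxc10 reached 1 FPKM in wildtype libraries only, so the filter itself fixed that their highest library was a wildtype one. At the other end, the hairloss library of day 16 was the lowest for 15 of the 27, or 55.6%, against 20.9% of all genes, and for 9 of 11 in groups 5 to 8. These counts describe single libraries and have no test.

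**Figure D1:**
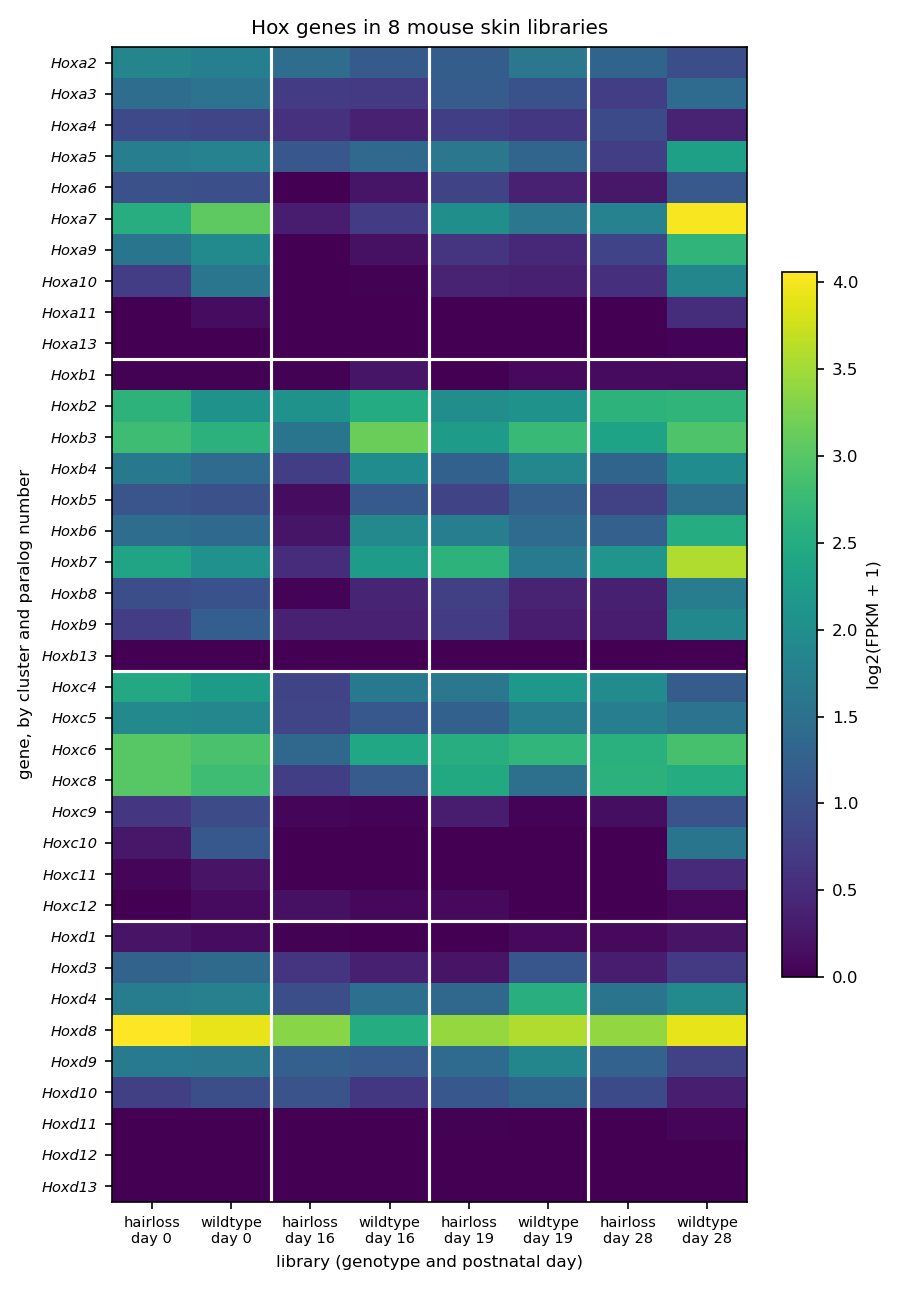
Level of the Hox genes, with 1 member not shown (rows, by cluster and paralog number) in each of the 8 libraries (columns, hairloss left of wildtype at each postnatal day), coloured by log2(FPKM + 1). Hoxa7 to Hoxa10, Hoxb6 to Hoxb9 and Hoxc9 to Hoxc11 are brightest in the wildtype day 28 column, while the rows of groups 11 to 13 are dark nearly throughout.

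Of the Hoxa cluster, the first genes were low. Hoxa2, a gene of hindbrain and second arch patterning, stood at 2.62, 1.73, 1.3 and 1.48 FPKM in hairloss skin over days 0, 16, 19 and 28, and at 2.36, 1.21, 2.07 and 0.962 FPKM in wildtype skin. Hoxa4 stood at 0.868, 0.5, 0.688 and 0.88 FPKM in hairloss skin and at 0.794, 0.292, 0.576 and 0.304 FPKM in wildtype skin. Wildtype day 28 was the lowest library for Hoxa2 and among the lowest for Hoxa4, below hairloss day 28 for both. Hoxa3 ranged over 0.617 to 1.92 FPKM.

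From Hoxa5 on, wildtype day 28 became the highest library. Hoxa5, a gene needed for lung and cervical to thoracic vertebra development, stood at 2.32, 1.15, 2.05 and 0.692 FPKM in hairloss skin over days 0, 16, 19 and 28, and at 2.48, 1.63, 1.51 and 3.93 FPKM in wildtype skin. Hoxa6 had 1.01, 0, 0.784 and 0.201 FPKM in hairloss skin and 0.993, 0.172, 0.294 and 1.19 FPKM in wildtype skin. In both genes the genotypes were close at day 0, and at day 28 the wildtype library was the higher.

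Hoxa7, a trunk-level gene, had 4.81, 0.243, 3.06 and 2.5 FPKM in hairloss skin at the 4 ages and 7.29, 0.635, 2.04 and 15.2 FPKM in wildtype skin. Its day 16 libraries were the lowest in both genotypes, and wildtype day 28 held more than any other library. Hoxa9, a gene of posterior trunk and of blood stem cells, had 1.98, 0.00667, 0.524 and 0.753 FPKM in hairloss skin and 2.83, 0.132, 0.368 and 5.29 FPKM in wildtype skin. Hoxa10, a gene of lumbar vertebra and uterus patterning, had 0.667, 0, 0.325 and 0.459 FPKM in hairloss skin and 2.02, 0.0196, 0.282 and 2.63 FPKM in wildtype skin. The 3 genes shared 1 course, at their lowest at day 16 in both genotypes, below their own day 0 level at day 19, and at day 28 high in the wildtype library alone. Hoxa11 reached 0.446 FPKM in wildtype day 28 and stayed at or below 0.101 FPKM elsewhere, and Hoxa13 did not pass 0.0232 FPKM.

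The ratio of the summed level of Hoxa7 to Hoxa13 over that of Hoxa2 to Hoxa4 puts this in 1 number a library. It was 1.43, 0.0865, 1.21 and 1.22 in hairloss skin over days 0, 16, 19 and 28, and 2.41, 0.371, 0.734 and 8.0 in wildtype skin. The hairloss values at days 0, 19 and 28 lay close together, whereas wildtype day 28 stood above and hairloss day 16 below all others.

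The Hoxb genes followed a different course. Hoxb2 was the steadiest of the higher members, at 5.16, 3.23, 3.02 and 5.16 FPKM in hairloss skin and 3.18, 4.63, 3.18 and 5.28 FPKM in wildtype skin. Hoxb3, which like Hoxb2 is known from hindbrain patterning, stood at 5.98, 1.98, 3.67 and 4.12 FPKM in hairloss skin and at 5.08, 7.87, 5.67 and 6.73 FPKM in wildtype skin. Hoxb4, a gene also used to expand blood stem cells, had 2.13, 0.679, 1.39 and 1.48 FPKM in hairloss skin and 1.69, 2.94, 2.7 and 2.92 FPKM in wildtype skin. Hoxb3 and Hoxb4 were higher in wildtype at each of days 16, 19 and 28, and slightly higher in hairloss at day 0.

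Hoxb6 had 1.75, 0.171, 2.34 and 1.36 FPKM in hairloss skin at the 4 ages, and 1.63, 2.78, 1.67 and 4.74 FPKM in wildtype skin. Hoxb7 had 4.2, 0.434, 5.18 and 3.32 FPKM in hairloss skin and 3.14, 3.7, 2.18 and 11 FPKM in wildtype skin. Unlike Hoxa7, both were low at day 16 in the hairloss library only. Hoxb9, the last member of the cluster with a level over 1 FPKM, had 0.659, 0.301, 0.633 and 0.251 FPKM in hairloss skin and 1.32, 0.29, 0.259 and 2.73 FPKM in wildtype skin. Its values were alike in the 2 genotypes at day 16, unlike those of Hoxb6 and Hoxb7. Hoxb5 and Hoxb8 ranged over 0.102 to 1.82 FPKM and 0.0227 to 2.31 FPKM, both with hairloss day 16 lowest and wildtype day 28 highest, and Hoxb1 did not pass 0.167 FPKM.

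**Figure D2:**
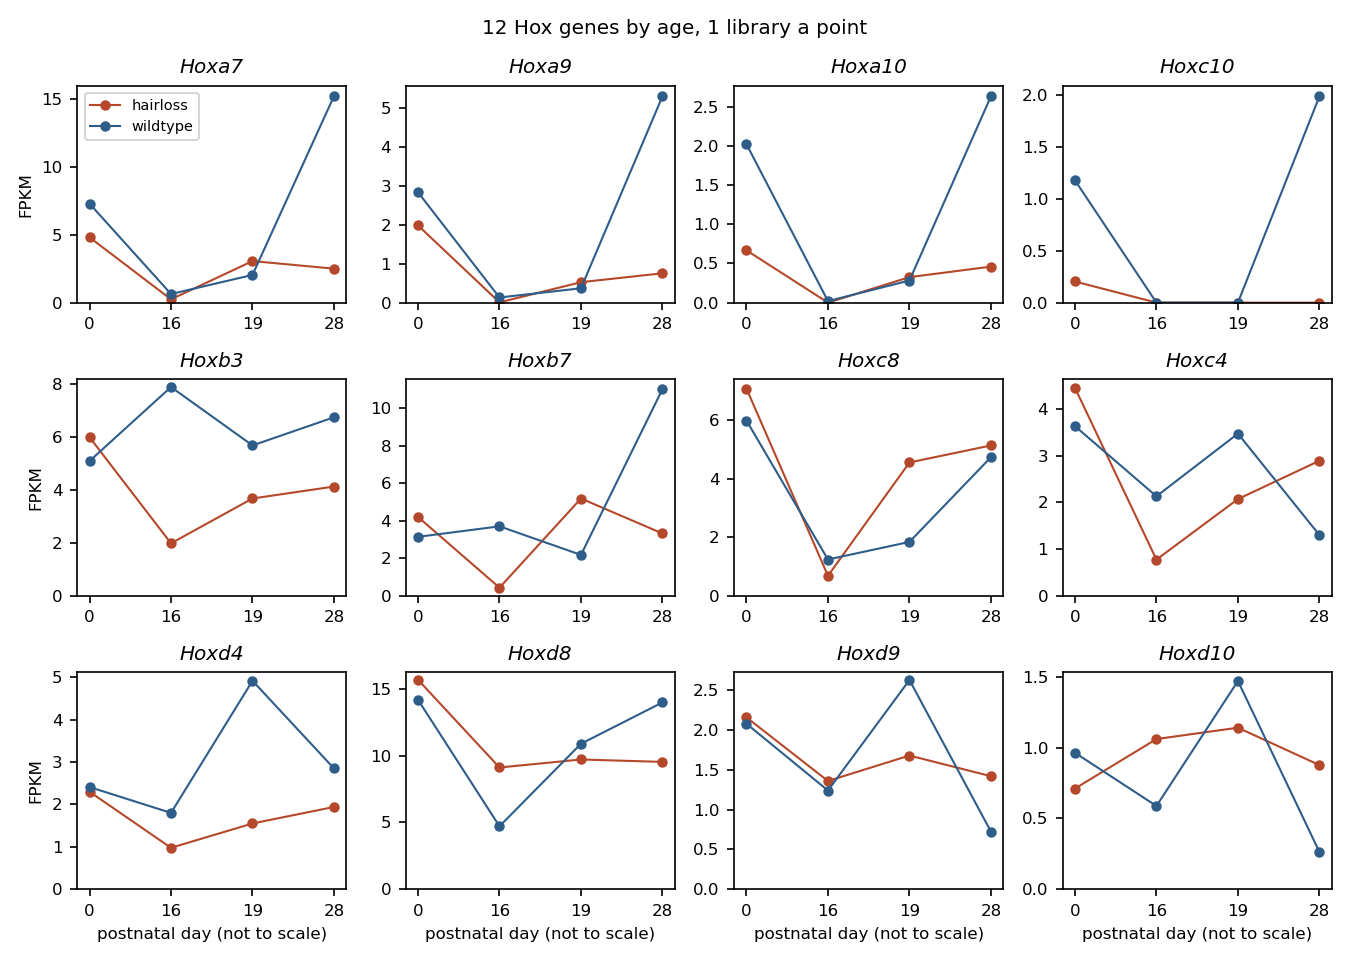
FPKM (vertical axis, from 0) of 12 Hox genes at postnatal days 0, 16, 19 and 28 (horizontal axis, not to scale) in hairloss and wildtype skin, 1 library a point. Hoxa7, Hoxa9, Hoxa10 and Hoxc10 have a wildtype peak at day 28, Hoxb7 does too, and Hoxd9 and Hoxd10 have their lowest wildtype value there.

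In the Hoxc cluster, whose genes are known from the dermal papilla of hair follicles, the middle genes were the high ones. Hoxc4 stood at 4.45, 0.775, 2.07 and 2.89 FPKM in hairloss skin and at 3.63, 2.13, 3.47 and 1.3 FPKM in wildtype skin. Hoxc5 stood at 2.78, 0.809, 1.4 and 2.34 FPKM in hairloss skin and at 2.7, 1.16, 2.26 and 1.93 FPKM in wildtype skin. For these first 2 genes of the cluster, wildtype day 28 was no high point, and the hairloss library of that age was above it.

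Hoxc6 had 7.01, 1.6, 4.77 and 4.95 FPKM in hairloss skin at the 4 ages, and 6.41, 4.43, 5.41 and 6.37 FPKM in wildtype skin. Hoxc8, known from patterning of the thoracic skeleton, had 7.07, 0.685, 4.55 and 5.13 FPKM in hairloss skin and 5.98, 1.24, 1.84 and 4.73 FPKM in wildtype skin. Hoxc8 was low at day 16 in both genotypes and still low at day 19 in wildtype alone, and the genotypes were close at day 28.

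The posterior Hoxc genes were low or listed at 0 at days 16 and 19. Hoxc9 had 0.569, 0.0526, 0.244 and 0.105 FPKM in hairloss skin and 0.897, 0.0254, 0.0308 and 1.05 FPKM in wildtype skin. Hoxc10, which with Hoxa10 and Hoxd10 marks the lumbar level and hindlimb, had 0.204 FPKM at day 0 and was listed at 0 at days 16, 19 and 28 in hairloss skin. In wildtype skin Hoxc10 had 1.18 FPKM at day 0, was listed at 0 at days 16 and 19, and had 1.99 FPKM at day 28. It was therefore above 0 in 3 libraries, and both wildtype ones exceeded the hairloss one. Hoxc11 had 0.0388 FPKM in hairloss day 0, and 0.155 and 0.409 FPKM in wildtype days 0 and 28, and was listed at 0 in the other libraries. Hoxc12 did not pass 0.133 FPKM.

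The Hoxd cluster ran against the other clusters at its posterior end. Hoxd8 was the member with the highest mean, 11 FPKM, with 15.7, 9.12, 9.72 and 9.54 FPKM in hairloss skin over days 0, 16, 19 and 28, and 14.2, 4.71, 10.9 and 14 FPKM in wildtype skin. Hoxd9 had 2.16, 1.36, 1.68 and 1.42 FPKM in hairloss skin and 2.08, 1.24, 2.63 and 0.723 FPKM in wildtype skin. Hoxd10 had 0.71, 1.06, 1.14 and 0.876 FPKM in hairloss skin and 0.963, 0.587, 1.47 and 0.262 FPKM in wildtype skin. Hoxd9 and Hoxd10 were lowest in wildtype day 28, the library in which their paralogs Hoxa9, Hoxb9, Hoxc9, Hoxa10 and Hoxc10 were highest, and neither was near the floor at day 16.

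Toward the other end of that cluster, Hoxd3 had 1.45, 0.536, 0.161 and 0.254 FPKM in hairloss skin and 1.66, 0.287, 1.13 and 0.607 FPKM in wildtype skin. Hoxd4 had 2.3, 0.975, 1.55 and 1.94 FPKM in hairloss skin and 2.41, 1.8, 4.92 and 2.85 FPKM in wildtype skin. Both stood out at day 19, where the wildtype library was well above the hairloss one. Hoxd1 did not pass 0.166 FPKM and Hoxd11, a limb gene, did not pass 0.0523 FPKM.

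Summed over the 38 members, the level was 83.9, 29.1, 55.9 and 54.4 FPKM in hairloss skin over days 0, 16, 19 and 28, and 82.4, 46.8, 60.3 and 106.1 FPKM in wildtype skin. Groups 9 to 13 made up 8.35%, 10%, 8.29% and 7.12% of the sum in hairloss skin and 14.1%, 5.05%, 8.38% and 14.8% in wildtype skin. The posterior share was thus even over the hairloss ages, and in wildtype it was higher at days 0 and 28 than between them. Without the Hoxd genes, groups 9 to 13 summed to 4.12, 0.492, 1.8 and 1.58 FPKM in hairloss skin and to 8.59, 0.534, 0.951 and 14.6 FPKM in wildtype skin. The Hoxd genes of those groups summed to 2.88, 2.42, 2.84 and 2.3 FPKM in hairloss skin and to 3.05, 1.83, 4.1 and 1.04 FPKM in wildtype skin. The posterior Hoxa, Hoxb and Hoxc genes thus spanned a far wider range between libraries than the posterior Hoxd genes, and the wildtype day 28 library was the highest for one set and the lowest for the other.

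The clusters' shares of the sum were compared as well. At day 16, Hoxd genes made up 44.9% of the sum in hairloss skin and 18.4% in wildtype skin, and Hoxb genes 23.8% in hairloss skin and 51.2% in wildtype skin. At day 28, Hoxa genes made up 14.9% in hairloss skin and 30.2% in wildtype skin, and Hoxc genes 28.3% in hairloss skin and 16.8% in wildtype skin. At day 19, Hoxd genes made up 25.5% in hairloss skin and 35.1% in wildtype skin. At day 0 the genotypes were closer, with Hoxa genes at 20.7% in hairloss skin and 26.6% in wildtype skin, and Hoxd genes at 26.8% in hairloss skin and 26.0% in wildtype skin. Much of the Hoxd share was Hoxd8, which held 9.12 FPKM of the 13.1 FPKM of Hoxd genes in hairloss day 16 and 4.71 of 8.62 FPKM in wildtype day 16. Without Hoxd8 the Hoxd share at day 16 was 19.8% in hairloss and 9.3% in wildtype, and at day 19 it was 9.85% in hairloss and 20.7% in wildtype.

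**Figure D3:**
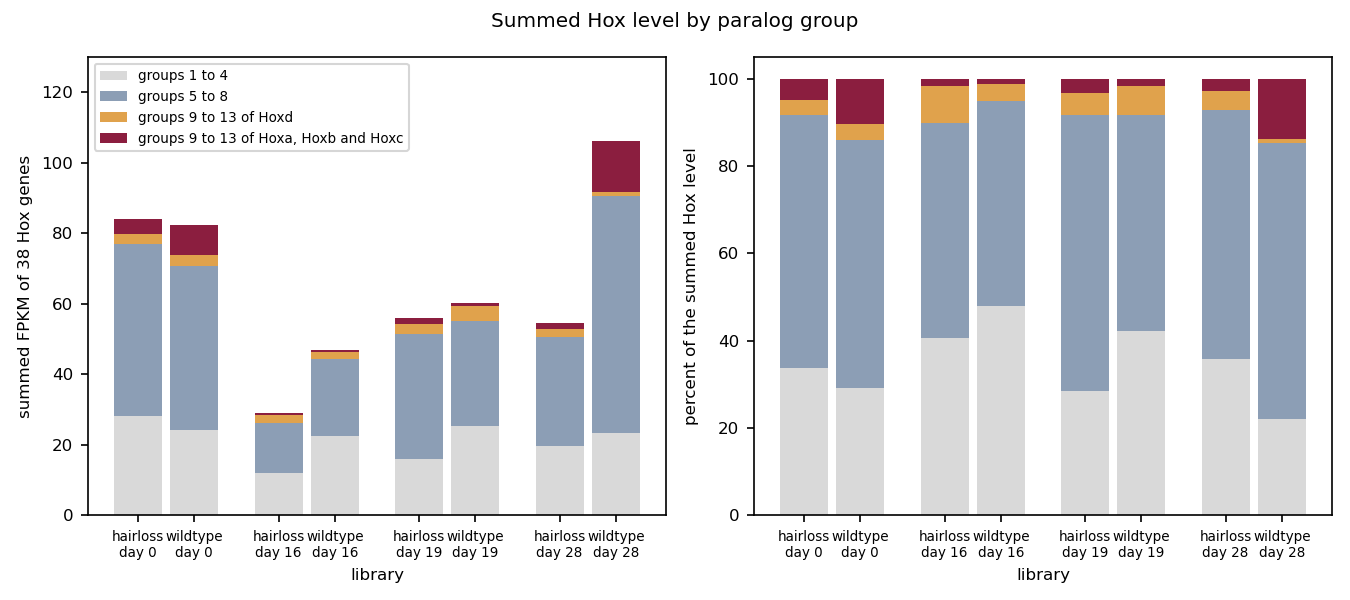
Summed FPKM of the 38 Hox genes (left) and each paralog group's percent of that sum (right) in each library, stacked by group, with groups 9 to 13 split into Hoxd genes and the rest. The sum runs between 29.1 FPKM in hairloss day 16 and 106.1 FPKM in wildtype day 28, and the posterior Hoxa, Hoxb and Hoxc genes are widest in wildtype day 28 and wildtype day 0.

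The first comparison asked whether hairloss and wildtype skin of 1 age had the same Hox mix. A member counted as apart when its log2(FPKM + 1) differed by at least 2-fold with 1 FPKM or more in either library, which is a rule of size and no test. That scale understates the difference of low genes.

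At day 0, 0 of 25 members at that level were 2-fold apart, where 3.07% of 16685 genes were. The members with the largest differences were Hoxa10 and Hoxc10, each at -0.86 (log2, hairloss minus wildtype), and Hoxa7 at -0.51. On the higher side stood Hoxb2 at 0.56, Hoxb7 at 0.33 and Hoxc4 at 0.23. The members of groups 9 and 10 in the Hoxa, Hoxb and Hoxc clusters were all lower in hairloss. Over all 38 members 15 were lower, 19 higher and 4 listed at 0 in both, beside 53.8% of genes lower. With a pseudocount of 0.1 or 0.5 in place of 1, Hoxa10 and Hoxc10 passed 2-fold, lower in hairloss. Both are among 4 members that reached 1 FPKM at day 0 through the wildtype library only, so their lower hairloss value was in part fixed by the filter.

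At day 16, 6 of 16 members were lower in hairloss by 2-fold, where 7.39% of all genes were, and 0 were higher, where 5.34% of all genes were. The 6 were Hoxb7 at -1.71, Hoxb6 at -1.69, Hoxb3 at -1.58, Hoxb4 at -1.23, Hoxc6 at -1.07 and Hoxb5 at -1.01. All but Hoxc6 are neighbours in the Hoxb cluster. Hoxd8 was the member farthest in the other direction at 0.83, followed by Hoxd10 at 0.38 and Hoxa2 at 0.31. Of the 16 members, 8 reached 1 FPKM through the wildtype library only, so that their lower value in hairloss was in part fixed by the filter. Over all 38 members 18 were lower in hairloss, 12 higher and 8 listed at 0 in both, beside 60.6% of genes lower.

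At day 19, 1 of 19 members was lower by 2-fold, Hoxd4 at -1.21, where 5.76% of all genes were lower, and 0 were higher, where 6.53% were. Next below it came Hoxd3 at -0.88 and Hoxb4 at -0.63. Hoxb7 and Hoxc8 were higher in hairloss at 0.96 each, just inside 2-fold, and Hoxa6 stood at 0.46. Over all 38 members 16 were lower and 16 higher, beside 50.8% of genes lower. The 5 Hoxb genes low in hairloss at day 16 showed no common side at day 19, since Hoxb6 and Hoxb7 were higher in hairloss and Hoxb3, Hoxb4 and Hoxb5 lower.

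At day 28, 9 of 24 members were lower in hairloss by 2-fold, where 6.42% of all genes were, and 0 were higher, where 5.6% were. Hoxa7 stood at -2.21, Hoxa9 at -1.84, Hoxb9 and Hoxc10 at -1.58 each, Hoxa5 at -1.54, Hoxb7 at -1.47, Hoxb8 at -1.37, Hoxa10 at -1.32 and Hoxb6 at -1.28. They run without a gap along Hoxb6 to Hoxb9, and between Hoxa5 and Hoxa10 only Hoxa6, at -0.86, stayed under the size. Higher in hairloss were Hoxc4 at 0.76, Hoxd10 at 0.57, Hoxa4 at 0.53 and Hoxd9 at 0.49. Of the 24 members, 10 reached 1 FPKM through the wildtype library only. Their lower value in hairloss was thus in part fixed by the filter. Among the 9, these were Hoxa5, Hoxa9, Hoxa10, Hoxb8, Hoxb9 and Hoxc10. Over all 38 members 27 were lower in hairloss, 8 higher and 3 listed at 0 in both, beside 50.3% of genes lower. The median difference of the 24 was -0.689 beside 0.000291 for all genes at that level. Without the filter it was -0.494 over the 35 members above 0 in either library, beside -0.00168 for all genes.

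**Figure D4:**
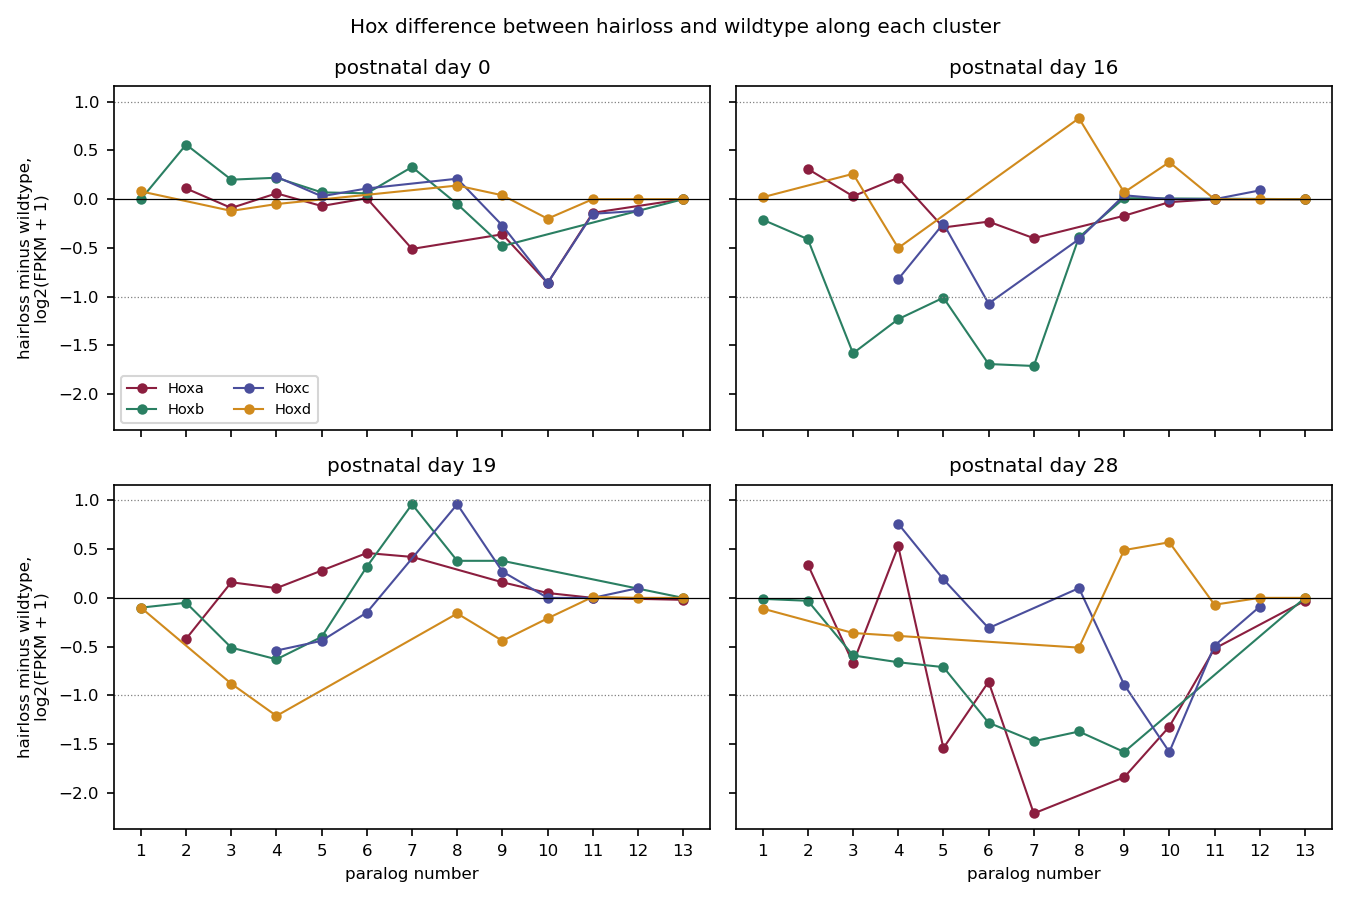
Difference between hairloss and wildtype in log2(FPKM + 1) (vertical axis) against paralog number (horizontal axis) for each Hox cluster at each of 4 postnatal days, 1 library of each genotype and 1 member not shown. Dotted lines mark 2-fold. The day 28 curve of Hoxa is lowest at number 7, that of Hoxb at 9 and that of Hoxc at 10, with Hoxc8 near 0, and that of Hoxd lies above 0 at 9 and 10, while at day 16 the Hoxb curve dips at 3 to 7.

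Other cell markers were set beside these values. At day 28, 11 of 13 dermal fibroblast genes were higher in hairloss, where their summed level was 1855 FPKM, against 1362 FPKM in wildtype. At day 16, 12 of 13 fibroblast genes were higher in hairloss, with a sum of 1364 FPKM against 956.0 FPKM in wildtype. At day 19 the side was the other one, with 11 of 13 lower in hairloss and a sum of 1281 FPKM against 2379 FPKM in wildtype. Skeletal muscle genes summed to 8440 FPKM in hairloss and 3743 FPKM in wildtype at day 28, and to 887.2 FPKM in hairloss and 1915 FPKM in wildtype at day 16, and to 3455 FPKM in hairloss and 7447 FPKM in wildtype at day 19. At day 16, where the Hoxb genes were low in hairloss, macrophage genes summed to 380.8 FPKM in hairloss and 123.2 FPKM in wildtype, and 5 of 5 were over 2-fold higher in hairloss. Adipocyte genes summed to 793.4 FPKM in hairloss and 606.0 FPKM in wildtype at day 28, Schwann cell and nerve genes to 107.0 FPKM in hairloss and 43.0 FPKM in wildtype, endothelial genes to 46.6 FPKM in hairloss and 26.3 FPKM in wildtype, and macrophage genes to 220.4 FPKM in hairloss and 149.4 FPKM in wildtype. These sums were lower in hairloss at day 19. In that order they were 568.1, 106.6, 46.0 and 248.9 FPKM in hairloss and 977.0, 186.8, 75.4 and 278.9 FPKM in wildtype. Keratinocyte genes summed to 9055 FPKM in hairloss and 1980 FPKM in wildtype at day 28, and to 10809 FPKM in hairloss and 3245 FPKM in wildtype at day 16. All 8 were higher in hairloss at day 28, but only 4 by 2-fold. Krt10 and Krt1 stood at 3251 and 2623 FPKM in hairloss and at 406.5 and 82.1 FPKM in wildtype. Trp63, Cdh1 and Dsg3 were close, at 55.3, 76.2 and 26.4 FPKM in hairloss and 50.8, 72.7 and 21.7 FPKM in wildtype. Hair shaft keratins, 8 of 9 of which were measured, summed to 13.4 FPKM in hairloss and 3810 FPKM in wildtype at day 28. At day 16 they summed to 885.7 FPKM in hairloss and 4169 FPKM in wildtype, an age at which Hoxa7, Hoxa9 and Hoxa10 were near their lowest in both genotypes. The hair shaft sums lay the other way at day 19, with 332.7 FPKM in hairloss and 17.4 FPKM in wildtype, and 8 of 8 were at least 2-fold higher in hairloss. In whole skin, fewer cells of a type and less RNA per cell cannot be told apart, and the part of these cell types in the Hox differences was not tested. Body site, animal and genotype cannot be told apart at an age with 1 library of each.

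A second comparison used all 8 libraries, with age as a block, to ask whether any Hox gene differed between genotypes over the 4 ages. In limma's moderated test, 0 of 27 members passed an adjusted p of 0.05 (Benjamini-Hochberg, two-sided), where 0.0374% of 18724 genes did, and 0 passed an unadjusted 0.05, where 13.4% of genes did. The members with the smallest p were Hoxb5 at -0.51 ± 0.21 (log2 difference ± SE, limma adjusted p = 0.377), Hoxd4 at -0.54 ± 0.22 (limma adjusted p = 0.377), Hoxb4 at -0.58 ± 0.25 (limma adjusted p = 0.394) and Hoxb3 at -0.62 ± 0.29 (limma adjusted p = 0.413). These were genes that were lower in hairloss at days 16, 19 and 28, not those with the largest gap at day 28. Hoxa7 had an estimate of -0.68 ± 0.43 (limma adjusted p = 0.502), and its difference was above 0 at day 19 and below 0 at the other ages. Leaving out a library or an age moved the Hoxa7 estimate between -1.04 and -0.16, and it was -0.16 without either day 28 library. The estimates of Hoxb3, Hoxb4 and Hoxb5 moved between -0.89 and -0.30, -0.84 and -0.36, and -0.71 and -0.35, each nearest 0 without either day 16 library. That of Hoxd4 moved between -0.70 and -0.31, nearest 0 without either day 19 library. In all, 20 estimates lay below 0 and 7 above, where 55.6% of all genes lay below 0. Their median was -0.35 beside -0.04 for all genes, and 5 of the 27 members, Hoxa10, Hoxb8, Hoxb9, Hoxc9 and Hoxc10, had reached 1 FPKM in wildtype libraries only.

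The last comparison asked how the Hox genes moved with age, with genotype as a block. The contrasts between ages share libraries with each other. Between day 16 and day 0, Hoxc8 fell, with a difference of -1.95 ± 0.34 (limma adjusted p = 0.0401), 1 of 27 members where 8% of genes passed. Hoxc8 was lower at day 16 in both genotypes, but the call was lost without any one of the 4 libraries of those ages, with adjusted p of 0.156 to 0.228, and also without either day 28 library, with adjusted p of 0.0582 without the wildtype and 0.0583 without the hairloss one. Without either day 28 library Hoxa7 and Hoxa9 passed in its place, both lower at day 16.

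All 27 estimates between day 16 and day 0 were below 0, beside 53.7% of genes, and 12 of the 27 had an unadjusted p under 0.05, where 33.4% of genes did. Hoxa7 had -2.28 ± 0.61 (limma adjusted p = 0.0719), Hoxa9 -1.66 ± 0.50 (limma adjusted p = 0.0895), Hoxc6 -1.04 ± 0.31 (limma adjusted p = 0.0883) and Hoxc5 -0.92 ± 0.23 (limma adjusted p = 0.0622). The estimates nearest 0 were those of Hoxd10 and Hoxb2. Each estimate averages the genotypes, and not every member fell in both. In wildtype, Hoxb2 to Hoxb7 were each higher at day 16 than at day 0, from 1.18 times for Hoxb7 to 1.74 times for Hoxb4. In hairloss these Hoxb genes were lower at day 16, while Hoxd10 was 1.49 times as high.

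For the mean of days 16, 19 and 28 against day 0, 0 of 27 members passed, where 11.8% of genes did, and 6 had an unadjusted p under 0.05, where 34.5% of genes did. Hoxc8 came nearest at -1.07 ± 0.28 (limma adjusted p = 0.0633), and Hoxd3 stood at -0.80 ± 0.25 (limma adjusted p = 0.0901). Between day 19 and day 16, 0 members passed, where 0.016% of genes did. There 25 of 27 estimates lay above 0, while 46.2% of all genes lay below 0. Only 1 member had an unadjusted p under 0.05, where 5.21% of genes had one. Between day 28 and day 19, 0 members passed and 0% of genes did, while at an unadjusted 0.05 the counts were 0 members and 1910 genes, or 10.2%. The spread between genotypes is part of the error of these contrasts, and Hoxa7 at day 28 stood at 2.5 FPKM in hairloss and 15.2 FPKM in wildtype.

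**Figure D5:**
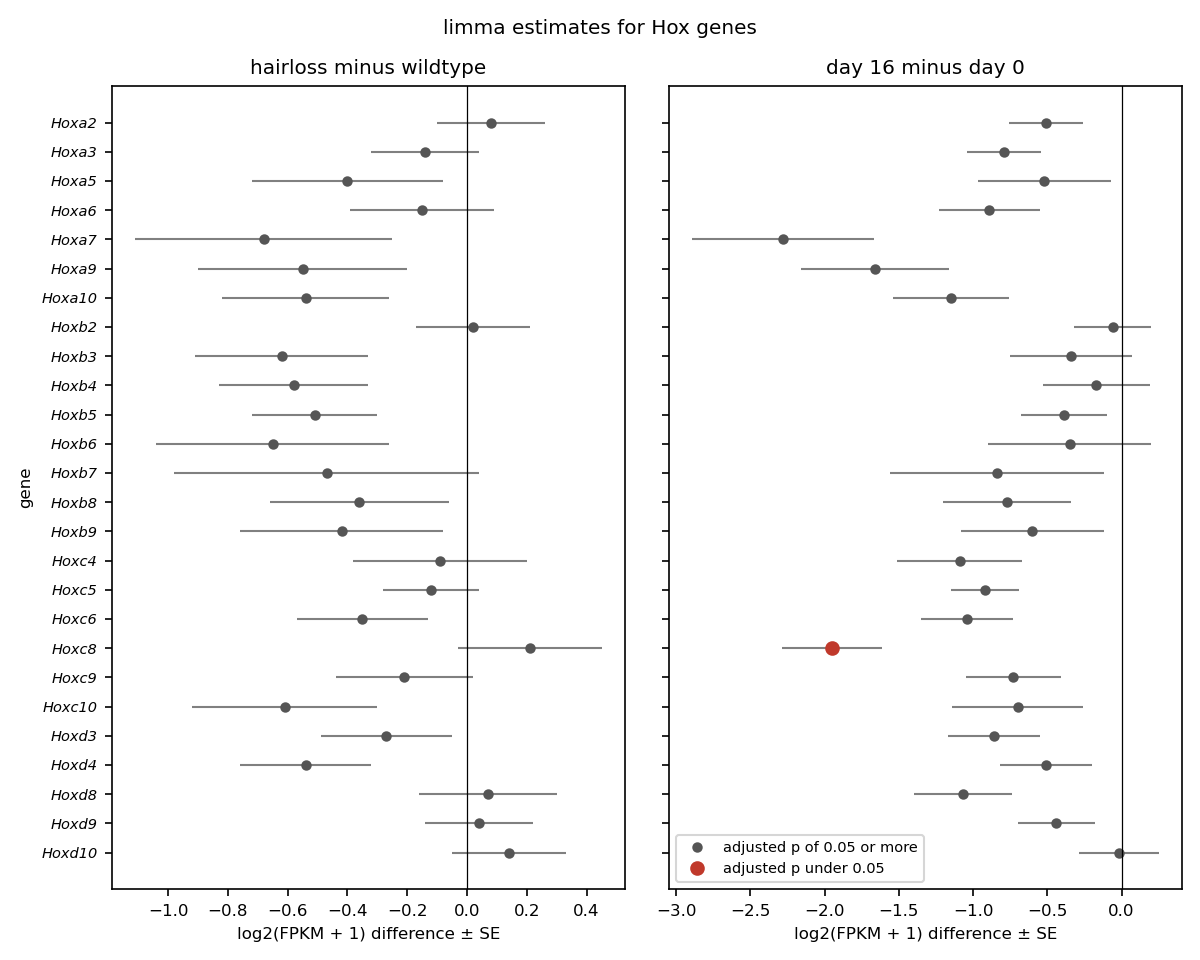
limma estimates (points) with SE (lines) of the log2(FPKM + 1) difference for the Hox genes that reached 1 FPKM, with 1 member not shown, hairloss minus wildtype over 4 ages (left) and day 16 minus day 0 over 2 genotypes (right). Only Hoxc8 in the right panel, in red, has an adjusted p under 0.05, and every point there lies below 0.

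Among the proteins that act with Hox genes, the cofactors summed to 66.4 FPKM in hairloss and 55.2 FPKM in wildtype at day 28. Of 9 Pbx, Meis and Pknox genes 8 were tested, 0 passed between genotypes in limma, and 2, Pbx3 and Meis1, fell in the later ages against day 0, where 11.8% of all genes passed. Pbx3 differed by -0.86 ± 0.16 (limma adjusted p = 0.0354) and Meis1 by -0.89 ± 0.20 (limma adjusted p = 0.0487). Meis1 stood at 12.5, 5.44, 5.28 and 8.18 FPKM in hairloss skin and at 13, 5.83, 8.29 and 6.03 FPKM in wildtype skin, with both day 0 libraries above the rest. The later-age calls on Pbx3 and Meis1 were lost without any one of the day 0 or day 16 libraries, and some without others. So were the later-age calls on Tbx, Alx4 and Polycomb genes and the Tbx3 call for day 16, given next. Pbx3 also fell between day 16 and day 0 (limma adjusted p = 0.0495), 1 of 8 where 8% of all genes passed.

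Other transcription factors that mark position were counted as well. Of 21 listed, 12 were tested, 0 passed between genotypes, and 4, Tbx15, Tbx18, Tbx2 and Alx4, fell in the later ages against day 0, where 11.8% of all genes passed. Between day 16 and day 0, 5 of the 12 fell, Tbx2, Tbx3, Tbx15, Tbx18 and Alx4, where 8% of all genes passed. Tbx15, a factor of dorsal to ventral coat patterning, stood at 54.4, 18.4, 27.8 and 22.4 FPKM in hairloss skin and at 50, 14.9, 34.6 and 17.0 FPKM in wildtype skin (limma adjusted p = 0.0226 for the later ages against day 0, -1.23 ± 0.16). Its values were within 1.5-fold between genotypes at each age, also at day 28, where Hoxa7 and Hoxa9 were far apart. Tbx4 and Tbx5, factors of the hindlimb and forelimb, stayed below 1 FPKM in every library. The hindlimb factor Pitx1 was higher in hairloss at all 4 ages. It stood at 0.54, 0.421, 1.7 and 0.457 FPKM in hairloss skin and at 0.178, 0.0129, 0.0701 and 0.123 FPKM in wildtype skin. Its difference was 0.65 ± 0.22 (limma adjusted p = 0.347). Pitx1 reached 1 FPKM in hairloss day 19 only, so its higher hairloss level was in part fixed by the filter.

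Of 20 Polycomb and Trithorax genes that keep Hox clusters off or on, 19 were tested and 0 passed between genotypes, and 2, Ezh2 and Rnf2, fell in the later ages against day 0, a share near the 11.8% of all genes. Ezh2, the histone H3 lysine methyltransferase of Polycomb, stood at 23.1, 11.7, 12.8 and 20.0 FPKM in hairloss skin and at 22.3, 14, 11.5 and 15.2 FPKM in wildtype skin (-0.66 ± 0.15, limma adjusted p = 0.0478). Rnf2, a ubiquitin ligase of Polycomb, differed by -0.70 ± 0.10 (limma adjusted p = 0.0256). Men1 was listed at 0 in every library, which can be a failed estimate. The summed level of the 20 genes, those that keep clusters off and on together, was 230.6 FPKM in hairloss and 227.9 FPKM in wildtype at day 28. At that age 9 of them were higher in hairloss and 10 lower, and 0 were 2-fold apart. The part of these genes in the Hox differences was not tested.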

How the data were processed

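Total RNA of mouse skin was isolated on RNeasy columns and made into libraries with TruSeq kits, per the labels' protocols. Cutadapt, Cuffdiff and mm10 are named per the submitters' processing notes, without versions; the sources used here do not name the aligner or annotation. For each library the authors deposited 1 value per gene, without a unit. These deposited values were taken as FPKM because Cuffdiff gives that unit and the values fit it, and it is not known whether libraries were scaled to each other. Coordinates, and symbols the files lack, came from GENCODE M21.

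Values of 1 member are not reported here, though counts and sums hold it. The members, lists and tests were chosen with earlier results of these data known. Named with values in every library were the 4 highest members of each cluster, members of groups 9 to 13 reaching 1 FPKM, members past a test, and the 3 largest differences each way at each age. Values were tested as log2(FPKM + 1) with limma 3.58.1 in R 4.3.3 (age and genotype as terms, trend and robust moderation, 3 residual degrees of freedom) over the 18724 genes that reached 1 FPKM in a library, with Benjamini-Hochberg p-values and a threshold of 0.05. On simulated data of 18724 genes the genotype contrast recovered 36% of 2-fold and 60% of 4-fold changes. The changed genes were drawn only from those with a mean log2(FPKM + 1) above 2, which most Hox members did not reach. These rates therefore do not apply to most members. The p-values measure how a difference varies over ages or genotypes, since no group has a second library.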

Additional observations from a re-analysis of the deposited data

How the results depend on the processing

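Some calls and counts changed, but no result was reversed in direction by the alternatives. They were pseudocounts of 0.1 and 0.5, no filter, a mean of at least 0.5 FPKM, 2 scalings, plain moderation, leaving out 90 genes whose 0 may be a failed estimate, a 1.5-fold rule, and leaving out each library or age. No Hox member passed between genotypes under any of them. Over the fits that each left out a library or an age, the genotype contrast called 1 to 5 genes, day 16 against day 0 called 26 to 1600 genes and 0 to 2 members, day 19 against 16 called 1 to 21 genes, day 28 against 19 called 0 to 20 genes, and the later ages against day 0 called 25 to 1880 genes and 0 to 2 members. Without the day 28 libraries, Hoxa7 and Hoxa9 passed for the later ages and for day 16 against day 0. Without the filter, the genotype contrast called 2 genes, day 16 against day 0 called 456 genes and 0 members (Hoxc8 adjusted p = 0.0639 in limma), and day 19 against 16 called 1 gene, while the later-age calls on Pbx3, Meis1, Alx4 and Ezh2 were lost at adjusted p of 0.0514 to 0.0734 in limma, and that on Tbx3 for day 16 at 0.065. Plain moderation also lost Meis1, Alx4 and Ezh2, at limma adjusted p of 0.0543, 0.0502 and 0.0579. Leaving out the suspected failed zeros, the genotype contrast called 0 genes, while 2520 had an unadjusted p under 0.05. A pseudocount of 0.1 gave 3 members for day 16 against day 0 (Hoxc8, Hoxa7 and Hoxa9), among 1634 genes called, and 5 genes for day 28 against 19. Scaling to the coding total without keratins gave 2274 genes for day 16 against day 0. For the later ages against day 0 it gave 1 member, Hoxc8, among 2910 genes called. That scaling moved the median of all genes between day 16 and day 0 to -0.227, against -0.0549.

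For the size rule, 1.5-fold in place of 2-fold gave 2 of 25 members lower in hairloss at day 0, 3 of 19 at day 19 and 15 of 24 at day 28. Of all genes, 4.0%, 14.4% and 13.1% were lower at those ages. It gave 1 member higher at day 16, 2 at day 19 and 1 at day 28, beside 11.7%, 14.3% and 13.3% of all genes. Pseudocounts of 0.1 and 0.5 each put 2 members lower at day 0, beside 3.0% and 2.15% of all genes. At day 19 each put 2 members on either side. Of all genes, 9.33% were lower and 9.12% higher there with 0.1, and 7.26% and 7.82% with 0.5. A pseudocount of 0.1 gave 1 member higher at day 28, beside 8.89% of all genes. The members' median difference was -0.799 at day 16, -0.339 at day 19 and -1.2 at day 28 with a pseudocount of 0.1. Without the filter it was -0.218 at day 16, -0.00105 at day 19 and -0.494 at day 28. The cause of these shifts was not tested. Without Hoxd8 the Hoxd share fell by over 1.5 times in every library, over days 0, 16, 19 and 28 to 9.96%, 19.8%, 9.85% and 10.2% in hairloss and to 10.6%, 9.3%, 20.7% and 5.06% in wildtype. The shares of groups 9 to 13 and of the other clusters stayed within 1.5 times without Hoxd8. That of groups 5 to 8, which hold Hoxd8, fell from 49.3% to 26.1% in hairloss day 16. Without members averaging under 0.5 FPKM the shares of all groups and clusters stayed within 1.5 times. That of groups 9 to 13 without the Hoxd genes moved from 1.69% to 1.06% in hairloss day 16. No paired analysis was possible because the labels give no replicate numbers, though age is already the block of the fit between genotypes. The Hox values were low, and those near or below 0.0703 to 0.0971 FPKM, the level of 3 fragments on 1000 bases, rest on a few fragments.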

Other observations

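Transcripts of the Hox clusters that the member rule leaves out also differed between libraries. Hoxb5os, an antisense transcript of the Hoxb cluster, stood at 1.39, 0.812, 0.717 and 1.71 FPKM in hairloss skin over days 0, 16, 19 and 28, and at 0.663, 4.5, 0.689 and 7.62 FPKM in wildtype skin. It was high in the same 2 wildtype libraries in which Hoxb5 exceeded its hairloss level by the most, and reads of the 2 genes cannot be told apart if strand was not kept. Hotair did not pass 0.11 FPKM, and its highest library was wildtype day 28, as for Hoxc10 and Hoxc11.

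Hoxc13, the hair shaft regulator kept out of the member list, had 3.85, 16, 9.28 and 4.13 FPKM in hairloss skin and 4.8, 40.0, 3.04 and 32.7 FPKM in wildtype skin. It was high in wildtype days 16 and 28, the libraries high in hair shaft keratins, whereas its cluster neighbours Hoxc10 and Hoxc11 were listed at 0 in wildtype day 16. A link between these levels was not tested.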
